A study of Mus musculus with 8 samples.

Results

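Of the 53819 genes in the deposited count table, 9 belong to blood clotting, to fibrinolysis or to the serpins that restrain these proteases, and are described here in bone marrow-derived macrophages (BMDM) with and without bilirubin. They are *F3*, *F7*, *F10*, *F13a1*, *Thbd*, *Plau*, *Plaur*, *Serpine2* and *Serpinb2*, taken by symbol from the table. They were chosen by their pathway with the bilirubin comparison already known, so their differences between treatments are a description and support nothing beyond themselves. BMDM were grown from the bone marrow of 4 female BALB/CJ mice aged 8 weeks, with 25 ng/mL macrophage colony-stimulating factor (M-CSF) for 5 days. From each mouse, 1 culture received 2.5 µM bilirubin and 1 received vehicle (DMSO) for 48 h, which gave 8 poly-A selected RNA libraries. The cultures are a model of M-CSF macrophages in vitro, and no mouse gave more than 1 culture per treatment.

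Clotting begins when tissue factor, the membrane receptor encoded by *F3*, binds factor VII. The complex activates factor X, which turns prothrombin into thrombin, and thrombin makes fibrin that the transglutaminase factor XIII cross-links. Fibrinolysis runs the other way, with urokinase (*Plau*) bound to its receptor (*Plaur*) converting plasminogen to plasmin, while serpins trap the proteases. Most circulating clotting factors come from the liver, but macrophages are known to make tissue factor, factor XIII A chain, urokinase and several of these serpins.

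Expression is given as CPM (counts relative to library size, scaled by edgeR's TMM method) when libraries are compared, and as TPM (abundance scaled for transcript length as well) when genes are compared. Log2 fold changes are bilirubin over vehicle, with the standard error (SE), and come from the quasi-likelihood test of edgeR, in which the mouse was a covariate beside treatment, and a gene passed when its Benjamini-Hochberg adjusted p over 13722 tested genes was under 0.05. Of the 9 members, 8 had enough counts to be tested and *Serpinb2* did not. Bilirubin treatment upregulated 2 of them, *F7* and *F10*, and 4.49% of all tested genes passed in that direction. It downregulated 3, *F13a1*, *Plau* and *Serpine2*, against 3.04% of all tested genes. *F3*, *Plaur* and *Thbd* did not pass. In either direction, 5 of 8 tested members passed beside 7.53% of all tested genes, and because the members were chosen with this comparison known, nothing is read from that gap. The CPM of the groups did not overlap for *F7*, *F10*, *Plau* and *Serpine2*, that is for 4 of 8 members beside 10.6% of all tested genes. Leaving out mouse 1 gave 6 members past the threshold, with *Thbd* added, and leaving out mouse 2, 3 or 4 gave 4 each, with *F13a1* lost.

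The genes lie on 7 chromosomes of the mouse genome (GRCm39, GENCODE annotation). *F7* (ENSMUSG00000031443, chromosome 8, 13076002 to 13085809) and *F10* (ENSMUSG00000031444, chromosome 8, 13087293 to 13106676) are neighbours on the plus strand, 1483 bases apart. *Plau* (ENSMUSG00000021822) is on chromosome 14, 20886722 to 20893453, and *Plaur* (ENSMUSG00000046223) on chromosome 7, 24161875 to 24175394. *F3* (ENSMUSG00000028128) is on chromosome 3, 121516610 to 121528820, *F13a1* (ENSMUSG00000039109) on chromosome 13, 37051152 to 37234277, and *Thbd* (ENSMUSG00000074743) on chromosome 2, 148216045 to 148250201. *Serpine2* (ENSMUSG00000026249, 79763323 to 79839144) and *Serpinb2* (ENSMUSG00000062345, 107428593 to 107463208) are both on chromosome 1. *Serpinb2* overlaps *Serpinb10* on its own strand, so reads could have been split between them. *Plau*, *Serpine2*, *Thbd*, *F13a1*, *F3* and *Serpinb2* overlap a gene on the other strand (*Sstr4* in the case of *Thbd*), and whether the counting used strand is not given in the sources used here.

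The stretches upstream of the main transcript are shown for the neighbours *F7* and *F10*, which were both upregulated, and for *Plau* and its receptor *Plaur*, of which *Plau* was downregulated. They are read 5′ to 3′ on the plus strand of GRCm39, from chr8:13075784-13076001 for *F7*, chr8:13087043-13087292 for *F10*, chr14:20886472-20886721 for *Plau* and chr7:24161625-24161874 for *Plaur*. Each ends at the start of the gene in the GENCODE annotation, and the window of *F7* is shorter because another transcript starts earlier. Capitals mark the letters of any motif that was searched, on either strand.
F7: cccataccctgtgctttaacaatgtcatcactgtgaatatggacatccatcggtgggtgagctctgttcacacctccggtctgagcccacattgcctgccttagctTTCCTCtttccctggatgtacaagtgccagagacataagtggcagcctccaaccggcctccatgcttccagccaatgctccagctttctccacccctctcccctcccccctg
F10: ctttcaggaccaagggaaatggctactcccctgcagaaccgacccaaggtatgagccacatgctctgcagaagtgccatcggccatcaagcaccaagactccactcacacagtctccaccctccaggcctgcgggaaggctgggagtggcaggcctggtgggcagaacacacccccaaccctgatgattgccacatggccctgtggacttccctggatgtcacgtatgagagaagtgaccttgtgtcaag
Plau: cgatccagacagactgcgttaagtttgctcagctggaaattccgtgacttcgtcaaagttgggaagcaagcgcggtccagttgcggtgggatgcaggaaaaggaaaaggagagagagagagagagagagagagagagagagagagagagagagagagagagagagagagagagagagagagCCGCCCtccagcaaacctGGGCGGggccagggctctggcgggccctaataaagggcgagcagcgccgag
Plaur: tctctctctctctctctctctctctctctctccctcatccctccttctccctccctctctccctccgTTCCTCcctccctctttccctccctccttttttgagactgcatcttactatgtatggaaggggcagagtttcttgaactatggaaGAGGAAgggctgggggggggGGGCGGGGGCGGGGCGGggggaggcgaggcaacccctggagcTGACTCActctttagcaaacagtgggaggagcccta

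Motifs were searched on both strands in the 250 bases before the main transcript of 13626 tested genes. The GC box (GGGCGG) was found in *Plau*, *Plaur*, *F3*, *Serpine2* and *Thbd*, and in 45.2% of all these promoters. The AP-1 site (TGANTCA) was found in *Plaur*, *F3* and *Serpinb2* and in 5.16% of all promoters. The PU.1 core (GAGGAA) was found in *F7* and *Plaur* and in 23.1% of all. A TATA box (TATAAA) was found in *Serpinb2* and in 8.78% of all, an E-box (CACGTG) in *Serpine2* and in 7.22%, and the core of the xenobiotic response element (GCGTG) in *Thbd* and in 38.5%. The NF-kB motif (7.91% of all promoters) and the antioxidant response element (TGACNNNGC, 10.8%) were found in 0 of the 9. The windows of *F10* and *F13a1* held no searched motif. Of the 250 bases, 208 in *Serpine2*, 122 in *F3*, 93 in *Thbd* and 32 in *F7* lay in annotated exons on the same strand. Matches in these windows may therefore lie in transcribed sequence. These matches describe letters in the windows, and the start sites may differ from those of the annotation release behind the counts.

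Among the members, *Plau* was by far the most abundant transcript in vehicle cultures. Its mean was 997 ± 71.5 TPM (SD, n = 4), rank 121 of 13722 tested genes. *Plaur* followed at 141 ± 4.94 TPM (SD, n = 4), rank 986. The other 7 were below the median of tested genes, 15.1 TPM. *F7* had 9.01 ± 1.22 TPM and *Thbd* 8.61 ± 0.606 TPM (SD, n = 4), and their ranges over the mice overlapped. *F10* had 6.20 ± 0.892 TPM, *Serpine2* 5.48 ± 0.818 TPM and *F13a1* 3.57 ± 0.858 TPM (SD, n = 4). The range of *Serpine2* overlapped those of *F10* and *F13a1*, while *F13a1* did not reach down to *F3*. *F3* was at 0.991 ± 0.210 TPM and *Serpinb2* at 0.143 ± 0.178 TPM (SD, n = 4). With bilirubin, the mean level of *F10* was 16.2 ± 3.81 TPM (SD, n = 4), behind those of *Plau* and *Plaur* alone, and that of *Plau* was 536 ± 127 TPM (SD, n = 4), still the highest.

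**Figure D1:**
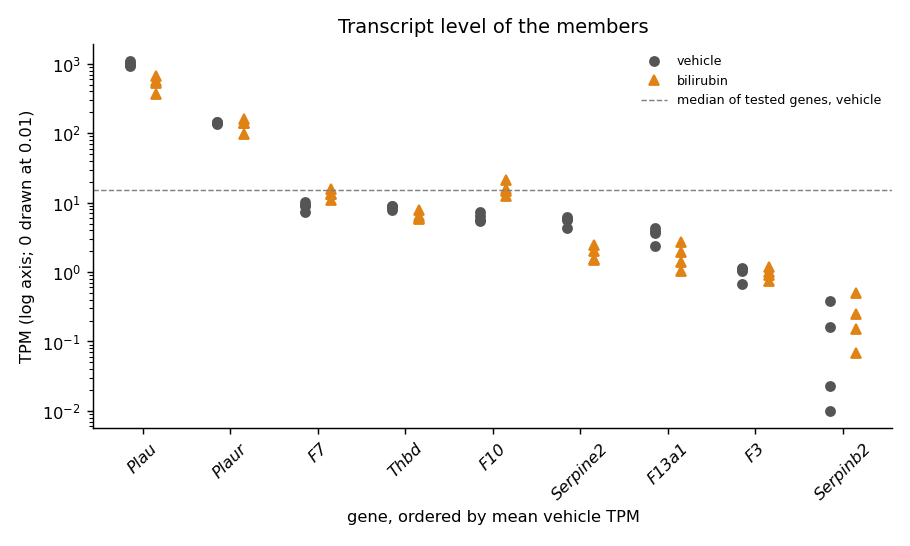
TPM of each member (log axis) in the 4 vehicle cultures (circles) and the 4 bilirubin cultures (triangles), with genes ordered by mean vehicle TPM and a dashed line at the vehicle median of tested genes (15.1 TPM). *Plau* and *Plaur* stand above the line in all 8 libraries, and *F10* moves from below it to around it with bilirubin.

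*F7*, which encodes the protease that tissue factor activates, rose by nearly the same factor in every mouse. Its vehicle levels in mice 1 to 4 were 7.95, 10.1, 11.3 and 9.76 CPM, and the bilirubin levels were 11.7, 15.03, 17.5 and 15.3 CPM. Every bilirubin culture was above every vehicle culture, and mouse 1 was lowest under both treatments. The log2 fold change was 0.60 (SE 0.06), and the 4 mice ranged from 0.56 to 0.65, with an SD of 0.04 against a median SD of 0.14 over all tested genes. The reference behind the counts held only 1 transcript of *F7*, so the use of its transcripts could not be compared.

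*F10*, the gene of factor X, had the largest rise in the set. Vehicle levels were even, at 6.69, 6.75, 7.08 and 6.44 CPM in mice 1 to 4, and bilirubin levels were 14.1, 15.6, 24.0 and 18.9 CPM. The groups were far apart, with more spread among the bilirubin cultures. This was a log2 fold change of 1.41 (SE 0.11), or 2.65-fold, and single mice ranged from 1.07 to 1.75. Salmon divided *F10* over several transcripts, of which ENSMUST00000033821 held between 38.6% and 68.5%. That transcript was at 3.11 to 4.06 TPM in vehicle and 6.14 to 14.3 TPM in bilirubin cultures, and the next, ENSMUST00000063820, at 1.14 to 1.95 and 2.95 to 3.89 TPM, so neither overlapped between treatments.

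The neighbours did not rise by the same factor. The ratio of *F10* to *F7* in TPM in mice 1 to 4 was 0.745, 0.592, 0.711 and 0.713 under vehicle, and 1.44, 0.957, 1.38 and 1.12 under bilirubin. The ratio was higher with bilirubin in all 4 mice, without overlap of the groups. In the bilirubin culture of mouse 1 (ratio 1.44), 29.2% of the TPM of *F10* was assigned to ENSMUST00000123768, a transcript of 609 bases. It was at 4.65 TPM there and at 0 to 1.83 TPM in the other libraries.

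*F3*, the initiator of clotting, was scarce under both treatments. In mice 1 to 4, vehicle cultures had 0.589, 1.14, 1.15 and 1.13 CPM, and bilirubin cultures 0.806, 1.36, 1.15 and 1.05 CPM, from 28 to 50 counts per library. Mouse 1 had the lowest level under each treatment, and the groups overlapped. Its log2 fold change was 0.14 (SE 0.23), with 3 of 4 mice above 0.

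*F13a1*, which encodes the catalytic A chain of factor XIII, was lower with bilirubin in each mouse but to unequal degrees. Vehicle cultures had 7.49, 10.6, 5.73 and 8.87 CPM, and bilirubin cultures 6.27, 3.57, 4.09 and 2.71 CPM. Mice 2 and 4 lost the most, and the bilirubin culture of mouse 1 lay above the vehicle culture of mouse 3, so the groups overlapped. Its log2 fold change was -0.99 (SE 0.24), with -0.25, -1.56, -0.48 and -1.69 in mice 1 to 4. Its adjusted p in the edgeR fit was 0.0479, and without mouse 2, 3 or 4 it was 0.195, 0.121 and 0.209, so this call rested on all of these mice. The main transcript, ENSMUST00000037491, was at 2.29 to 4.33 TPM in vehicle and 1.02 to 1.52 TPM in bilirubin cultures and did not overlap. The TPM of the whole gene did overlap, at 2.68 in the bilirubin culture of mouse 1 and 2.36 in the vehicle culture of mouse 3. ENSMUST00000164727, at 0 in all vehicle cultures, was assigned 56.1% and 27.4% of the gene's TPM in the bilirubin cultures of mice 1 and 2. ENSMUST00000225168 was assigned 23.1% in the bilirubin culture of mouse 3 and 26.9% in the vehicle culture of mouse 1. With *F10* rising and *F13a1* falling, the ratio of *F10* to *F13a1* in TPM was 1.25 to 3.1 in vehicle cultures and 5.95 to 14.2 in bilirubin cultures.

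**Figure D2:**
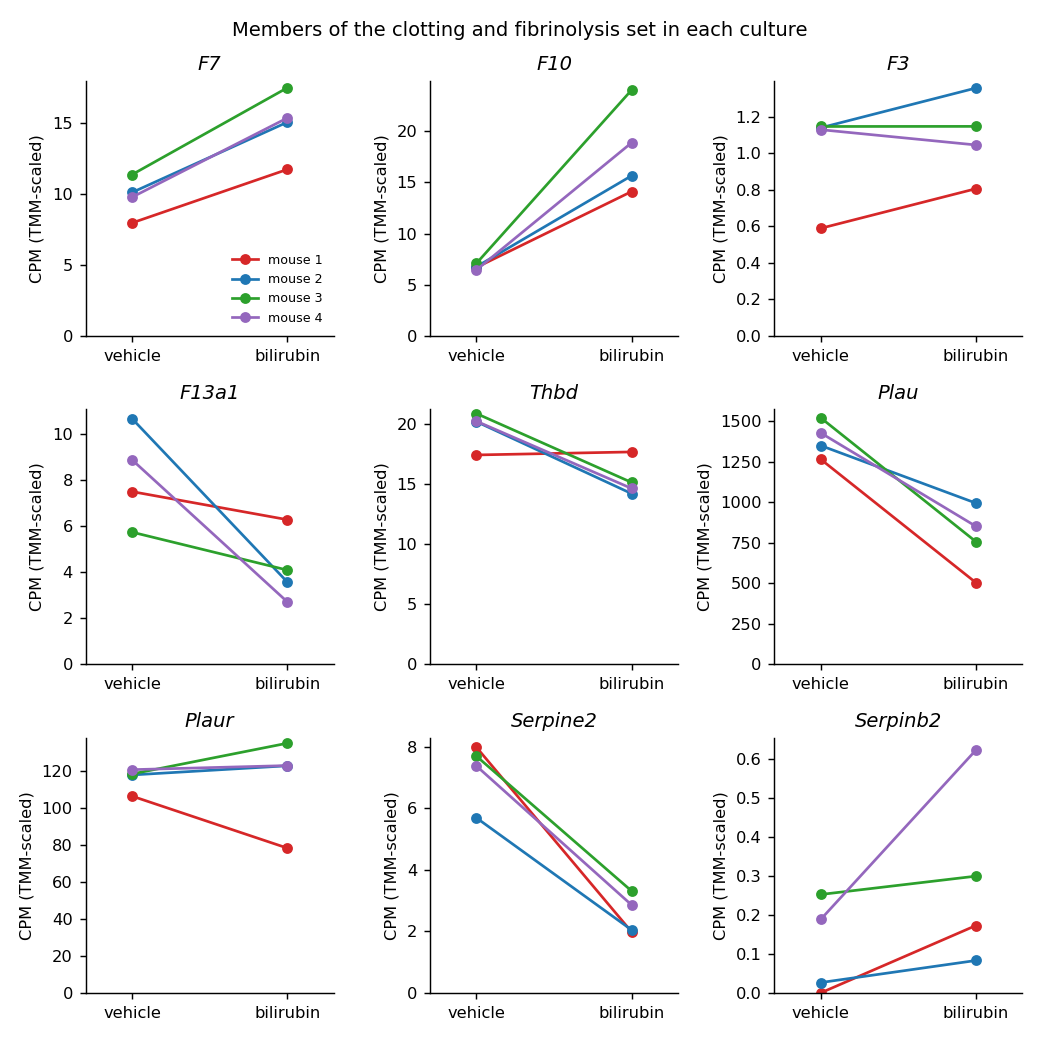
TMM-scaled CPM of each of the 9 members in the vehicle and the bilirubin culture of each mouse, with a line joining the cultures of 1 mouse and each vertical axis starting at 0. Lines of *F7* and *F10* rise in all 4 mice and those of *Plau*, *Serpine2* and *F13a1* fall in all 4, while mouse 1 (red) departs from the others in *Thbd* and *Plaur*.

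*Thbd* encodes thrombomodulin, the receptor that turns thrombin toward activation of protein C. Its vehicle levels were 17.4, 20.2, 20.9 and 20.2 CPM in mice 1 to 4, and its bilirubin levels 17.7, 14.2, 15.1 and 14.6 CPM. Mice 2, 3 and 4 had log2 changes of -0.51, -0.46 and -0.47, whereas mouse 1 had 0.02, and the groups overlapped through mouse 1. The log2 fold change was -0.35 (SE 0.09), and the adjusted p in the edgeR fit was 0.0592. Without mouse 1 the log2 fold change was -0.48, with an adjusted p of 0.00029.

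*Plau* encodes urokinase, the plasminogen activator that works at the cell surface. In mice 1 to 4, vehicle cultures had 1266, 1350.3, 1522 and 1429 CPM, and bilirubin cultures had 505, 995, 758 and 852 CPM. Every bilirubin culture was below every vehicle culture, and the order of the mice was not kept. The log2 fold change was -0.88 (SE 0.12), which left 54.4% of the vehicle level, and single mice ranged from -1.33 in mouse 1 to -0.44 in mouse 2. *Plat*, which encodes the other plasminogen activator, had 4 to 16 counts per library and was not tested.

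*Plaur*, the gene of the urokinase receptor, had no common direction. Vehicle cultures had 107, 118, 119 and 121 CPM, and bilirubin cultures had 78.4, 123, 135 and 123 CPM. Mouse 1 was lower with bilirubin and the other 3 were higher, with log2 changes of -0.44, 0.06, 0.19 and 0.03. Over the 4 mice the log2 fold change was -0.04 (SE 0.09), and without mouse 1 it was 0.0895. Urokinase transcripts thus became fewer relative to those of the receptor: the TPM ratio of *Plau* to *Plaur* was 6.87, 6.70, 7.74 and 7.06 under vehicle in mice 1 to 4, and 3.85, 4.88, 3.31 and 4.11 under bilirubin. The ratio was lower with bilirubin in all 4 mice, mouse 1 included.

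*Serpine2* encodes protease nexin-1, a serpin that inhibits thrombin and urokinase, and had the largest fall in the set. Vehicle cultures had 7.99, 5.70, 7.70 and 7.38 CPM, and bilirubin cultures had 1.99, 2.05, 3.32 and 2.86 CPM. The highest bilirubin culture was well below the lowest vehicle culture. The log2 fold change was -1.50 (SE 0.15), which left 35.3% of the vehicle level, and single mice ranged from -1.98 in mouse 1 to -1.20 in mouse 3. As *Serpine2* fell further than its target *Plau*, the TPM ratio of *Plau* to *Serpine2* was higher with bilirubin in each mouse, but its ranges overlapped, at 149 to 223 in vehicle and 215 to 456 in bilirubin cultures.

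*Serpinb2*, the gene of plasminogen activator inhibitor 2, was near the detection limit. Mice 1 to 4 had 0, 1, 11 and 8 counts in vehicle cultures and 6, 3, 12 and 25 counts in bilirubin cultures. The CPM was higher with bilirubin in each mouse, although the TPM of mouse 3 was lower. Most libraries held too few counts for a test, and no fold is given.

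**Figure D3:**
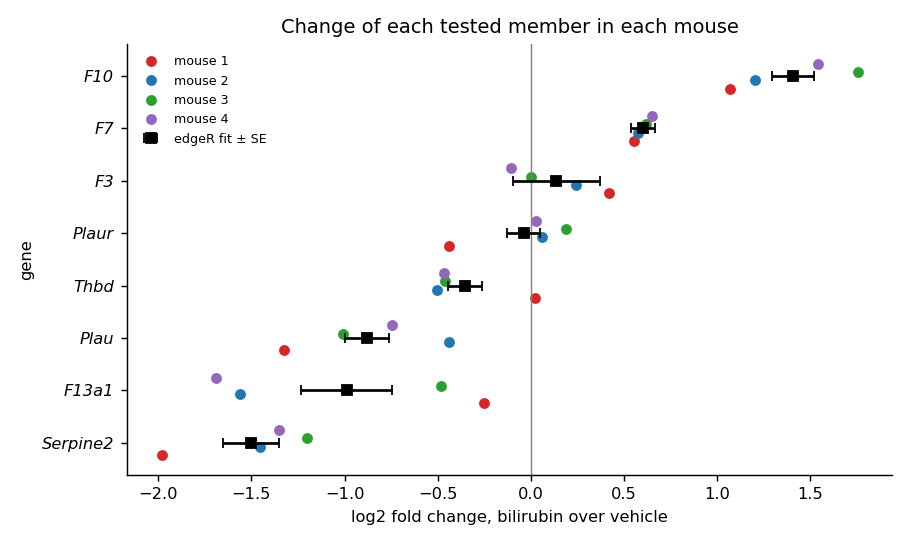
Log2 fold change of bilirubin over vehicle for the 8 tested members, as the edgeR estimate ± SE (black squares) and as the difference of log2 CPM in each mouse (coloured points). The points of *F7* lie within 0.56 to 0.65, while those of *F13a1* run from -1.69 to -0.25 and mouse 1 is the highest or lowest of the 4 mice for each gene.

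The mice differed in how the set changed. For all 8 tested members mouse 1 had the highest or the lowest change of the 4 mice, and this was so for 65.4% of all tested genes. For mice 2, 3 and 4 this held for 2, 3 and 3 of the members and for 47.3%, 42.5% and 44.8% of all tested genes. Mouse 1 also had the deepest vehicle library and the shallowest bilirubin library of the series, with 47071714 and 34142781 counts on genes. The part of depth in these differences was not tested. The other 6 libraries held 37120393 to 43269953 counts.

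The wider pathway was read from a list of other genes of clotting and fibrinolysis and of all other serpins, many of which have no known role in clotting. Of the list, 34 had enough counts to be tested and 70 did not, 40 of the latter being at 0 in every library. Of the 34, 6 were upregulated, 2 were downregulated and 26 did not pass, that is 23.5% past the threshold beside 7.53% of all tested genes. Their median log2 fold change was 0.05 against -0.0018 for all tested genes. These values describe the list, which was not compared with other lists.

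In the plasminogen system, which here covers plasminogen receptors, a clearance receptor and a membrane protease (*St14*), 3 of 6 tested genes rose and 1 fell, beside 7.53% of all tested genes past the threshold in either direction. *S100a10* and *Anxa2*, which form a receptor for plasminogen at the cell surface, rose from 183 ± 9.53 to 247 ± 30.3 CPM (SD, n = 4) and from 463 ± 25.2 to 553 ± 54.0 CPM (SD, n = 4). Their log2 fold changes were 0.42 (SE 0.04, edgeR adjusted p = 0.000952) and 0.25 (SE 0.04, edgeR adjusted p = 0.00401). *Eno1*, a glycolytic enzyme that also binds plasminogen, rose by 0.29 on the log2 scale (SE 0.04, edgeR adjusted p = 0.00475). *Lrp1*, the receptor that clears complexes of proteases and serpins, was downregulated from 4034 ± 112 to 3338 ± 243 CPM (SD, n = 4), with a log2 fold change of -0.28 (SE 0.04, edgeR adjusted p = 0.00305). In CPM, *S100a10*, *Anxa2* and *Eno1* were higher in 4 of 4 mice and *Lrp1* lower in 4 of 4, without overlap of the groups. In TPM, *Lrp1* in mouse 1 was at 662 under vehicle and 672 under bilirubin, above every vehicle culture, so its groups overlapped. *Lrp1* did not pass with an offset for transcript length (adjusted p = 0.0881), *Eno1* not without mouse 3 (adjusted p = 0.0512), and *Anxa2* not without mouse 3 or without the mouse in the model. *Plgrkt*, another plasminogen receptor, and *St14* had log2 fold changes of 0.05 and -0.11 and did not pass.

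Natural anticoagulants were mixed. *Anxa5*, which covers the phospholipid on which clotting complexes form, rose by 0.21 on the log2 scale (SE 0.04, edgeR adjusted p = 0.0202), in 4 of 4 mice. *Pros1*, the gene of protein S, fell with a log2 fold change of -0.34 (SE 0.06, edgeR adjusted p = 0.0168), in 4 of 4 mice. *Anxa5* did not pass without mouse 2, 3 or 4, and *Pros1* did not pass without any of these mice, without the mouse in the model or with the offset. *Procr*, the endothelial protein C receptor, had a log2 fold change of 0.53 (SE 0.19), above 0 in 3 of 4 mice and -0.38 in mouse 1, and *Tfpi*, the inhibitor of the tissue factor complex, had 0.01 (SE 0.09), and neither passed.

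Of 14 other genes of clotting factors and fibrinogen, 4 were tested (*Vwf*, *F9*, *F5* and *F8*) and 10 had too few counts. None of the 4 passed, beside 7.53% of all tested genes. The 5 genes for vitamin K-dependent carboxylation and factor secretion were all tested and did not pass. *Vwf*, the gene of the carrier protein of factor VIII, was at 101 ± 9.15 CPM in vehicle and 93.4 ± 8.92 CPM in bilirubin cultures (SD, n = 4), with a log2 fold change of -0.11 (SE 0.05). *F9* and *F5* had 0.36 (SE 0.24) and -0.35 (SE 0.40). *F8*, named after its values were seen, was scarce, at 0.315 ± 0.0736 CPM in vehicle and 0.0849 ± 0.0910 CPM in bilirubin cultures (SD, n = 4). Its level was lower with bilirubin in 4 of 4 mice without overlap of the groups, but with a log2 fold change of -1.94 (SE 0.69, edgeR adjusted p = 0.152) it did not pass. Prothrombin (*F2*) had at most 1 count in any library, and of the fibrinogen genes *Fga* was at 0 and *Fgb* and *Fgg* had at most 4 counts. *Lman1*, *Mcfd2* and *Vkorc1l1* had log2 fold changes of -0.02, -0.05 and 0.08. Of the protease-activated receptors, which sense thrombin and related proteases, *F2r* and *F2rl2* were tested, with -0.21 (SE 0.35) and 0.06 (SE 0.23), and did not pass.

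Of 62 other serpin genes, 13 were tested and 30 were at 0 in all libraries. *Serpinb8*, an intracellular serpin, rose from 44.3 ± 1.75 to 68.4 ± 4.05 CPM (SD, n = 4), by 0.55, 0.60, 0.63 and 0.71 on the log2 scale in mice 1 to 4 (fit 0.63, SE 0.04, edgeR adjusted p = 0.000102), and passed in 13 of 13 alternatives. *Serpinb9b*, one of the mouse relatives of the granzyme B inhibitor, rose by 1.00 (SE 0.23, edgeR adjusted p = 0.0348) from 97.7 ± 30.5 to 212 ± 105 CPM (SD, n = 4), with 0.02, 1.47, 0.80 and 1.66 in mice 1 to 4. *Serpinb9b* passed in 7 of 13 alternatives. It did not pass with DESeq2, with the offset for transcript length, without the mouse in the model, or without mouse 2, 3 or 4. Its groups overlapped in CPM, and as a member of a cluster of closely related genes it could have shared reads with them. Of the serpins that did not pass, *Serpinb6a*, *Serpinb9* and *Serpinb6b* had log2 fold changes of 0.05, 0.19 and -0.18.

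**Figure D4:**
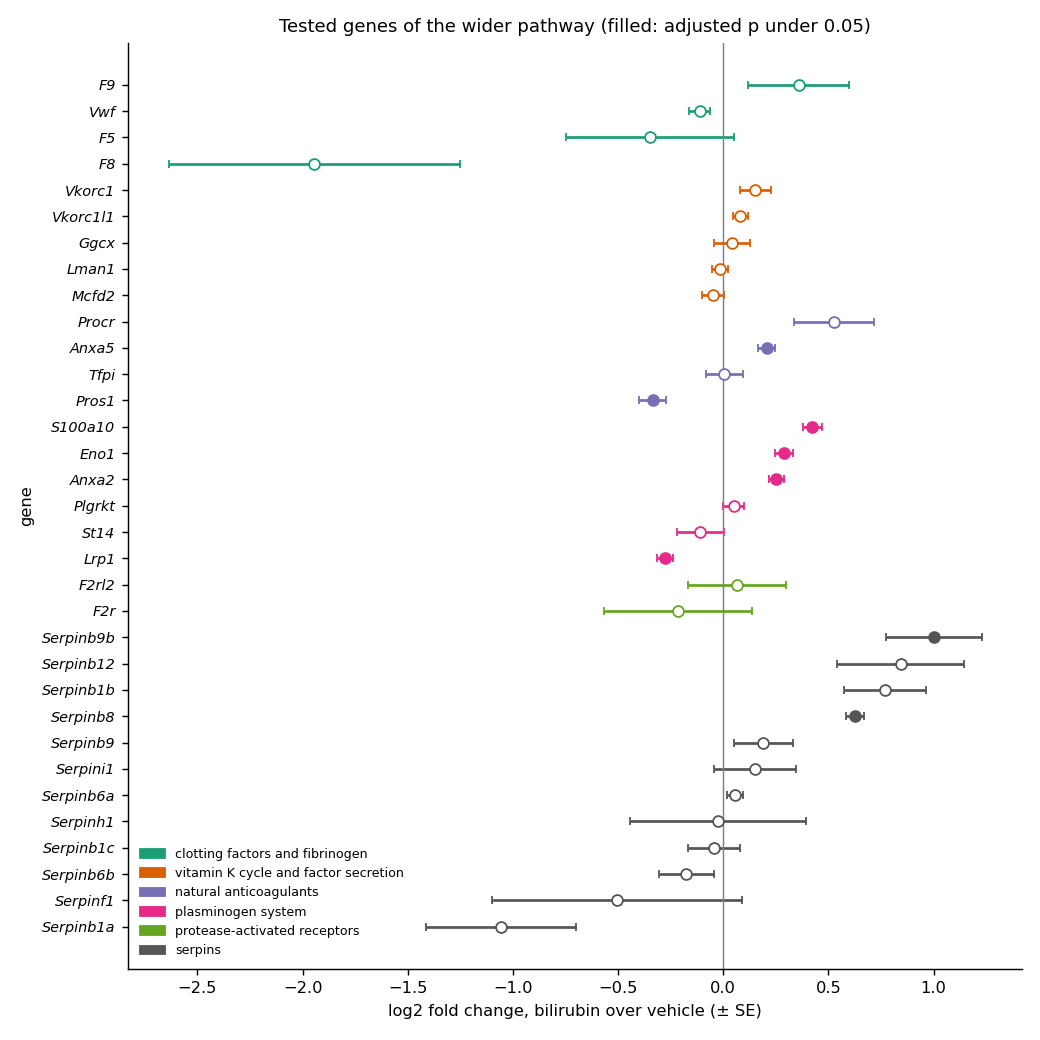
Log2 fold change of bilirubin over vehicle (± SE) for 33 of the 34 tested genes of the wider pathway, grouped and coloured by role, with filled points for genes past the threshold. The 8 filled points are *Anxa5*, *Pros1*, *S100a10*, *Eno1*, *Anxa2*, *Lrp1*, *Serpinb9b* and *Serpinb8*, and *F8* has the widest error.

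For the 5 members past the threshold, the tested genes with the most similar profile were found from the root-mean-square difference of mean-centred log2 CPM over the 8 libraries, among 10899 genes. *F7* was nearest to *Tm4sf19* (0.0664), *Il1rn* (0.0797) and *Slc16a3* (0.0801). *F10* was nearest to *Src* (0.101), *Ctsk* (0.109) and *Socs3* (0.111), and *Plau* to *Gpr176* (0.130), *Sox4* (0.169) and *Chst11* (0.193). The matches of *F13a1* (*Gm1673*, *Cd28* and *Gas6*) and *Serpine2* (*Flt1*, *Ch25h* and *Cx3cr1*) were looser, at 0.252 to 0.286 and 0.379 to 0.387.

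All 7 macrophage markers were expressed, with a summed level of 30158 to 30376 TPM in vehicle and 34023 to 37764 TPM in bilirubin cultures, and 3 of them rose (*Adgre1*, *Itgam* and *Lyz2*). Most of the sum was *Lyz2*, at 25914 to 26057 TPM in vehicle and 30096 to 33386 TPM in bilirubin cultures. *Cd68*, *Csf1r*, *Mertk* and *Fcgr1* did not pass, with log2 fold changes of -0.16, -0.02, -0.15 and -0.20. Of 7 platelet markers, *Pf4* fell by 0.54 on the log2 scale (edgeR adjusted p = 0.000543). The summed level of the 7 was 194 to 234 TPM in vehicle and 132 to 155 TPM in bilirubin cultures, almost all of it *Pf4*, and *Gp1bb* was at 0 in every library. Hepatocyte markers, 6 genes, summed to at most 0.0451 TPM, with *Alb*, *Apoa1*, *Ttr* and *Fga* at 0. The 7 fibroblast markers, of which *Lum* was at 0, summed to 0.395 to 1.98 TPM in vehicle and 0.275 to 2.03 TPM in bilirubin cultures. The 6 endothelial markers summed to 28.9 to 34.2 and 26.7 to 30.6 TPM, mostly *Vwf*. Of the 7 neutrophil markers *S100a8* rose, and the sum of the 7 was 52.5 to 63.6 TPM in vehicle and 91.6 to 148 TPM in bilirubin cultures. Almost all of it was *S100a8*, at 52.2 to 62.9 and 87.3 to 146 TPM. The other neutrophil markers were scarce: in any library *Ly6g* and *Camp* had at most 3 counts, *Elane* 7, *Mpo* 18, *S100a9* 20 and *Ngp* 28. In bulk libraries, fewer cells of a type and less RNA per cell cannot be told apart, and the part of other cell types in the members' values was not tested.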

How the data were processed

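RNA of 8 BMDM libraries, a vehicle and a bilirubin culture from each of 4 mice, was sequenced by the authors, who trimmed reads with Trim Galore 0.6.7 and Cutadapt 3.4, aligned them with STAR 2.7.9a to GRCm39 and quantified transcripts with Salmon 1.10.1. The values deposited per gene are expected (estimated) counts from Salmon, not normalized, with per library the expected counts and TPM of 142434 transcripts. Counts on genes were 34142781 to 47071714 per library. With the mouse in the model, p-values set the treatment change against an estimate of how much that change varies between mice. For each gene edgeR draws this estimate toward that of all tested genes. SE and p therefore do not rest on a gene's own 4 changes alone. For *F13a1* the SD of the change over the 4 mice was 0.73 and the SE was 0.24. TPM was summed per gene symbol.

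Counts were rounded and fitted with edgeR 4.0.16 in R 4.3.3: TMM, filterByExpr (10 counts, 15 in total), mouse and treatment, quasi-likelihood test, Benjamini-Hochberg over 13722 genes, threshold 0.05. SE was the fold change over the root of its F statistic, and log2 CPM used a prior count of 2. The fit was tested on simulated data. The pairing comes from the culture number in the labels, and cultures with the same number were read as coming from the same mouse. Deviations from the group means had a mean correlation of 0.0862 within mice (-0.0053 to 0.134) and -0.0279 between mice (-0.160 to 0.0751), with overlapping ranges. Because deviations within a group sum to 0, the mean between mice is tied to that within mice. It is no separate baseline, and nothing about the pairing is read from it.

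Members and gene lists were chosen with earlier results of these data known. The text names all members, every listed gene past the threshold, up to 3 per role that did not pass with the highest mean CPM, and for each member past the threshold the 3 genes nearest in profile. *F2*, *Plat*, the fibrinogen genes and *F8* were named in addition. The result of 1 tested gene of the wider pathway is not reported here. Alternatives were DESeq2 1.42.0, limma 3.58.1 (voom and trend), other scalings and filters, a transcript length offset, no mouse term, and each mouse left out. Promoters were read from GRCm39 with a later GENCODE annotation.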

Additional observations from a re-analysis of the deposited data

Results flagged for a closer look

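Among 26 groups of 4 values (members' CPM under each treatment, log2 change per mouse), 2 held a value far from the other 3 by Dixon's test, and chance gives about 1 in 20. In vehicle cultures *F3* was at 0.589 CPM in mouse 1, against 1.13 to 1.15 CPM in the others (Dixon ratio 0.969). For *Thbd* the log2 change was 0.0206 in mouse 1, against -0.51 to -0.46 in the others (Dixon ratio 0.917). Both are values of mouse 1, and their cause was not tested.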

How the results depend on the processing

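*F7*, *F10*, *Plau* and *Serpine2* kept their direction and passed in 13 of 13 alternatives, with log2 fold changes of 0.58 to 0.61, 1.28 to 1.52, -1.03 to -0.73 and -1.61 to -1.35. Without the mouse as a replicate block, 686 of all tested genes passed (main 1033) and 5 of the other pathway genes (main 8), and *Thbd* passed at -0.35. *Thbd* also passed with DESeq2 (-0.36) and without a filter (-0.36). Without a filter 1692 genes and 14 pathway genes passed. With the transcript length offset 578 genes and 5 pathway genes passed, and *F13a1* did not, at -1.01 (adjusted p = 0.0919). Leaving out 1 mouse gave 377 to 1910 genes and 3 to 13 pathway genes, with the highest counts without mouse 1 and the lowest without mouse 3, and log2 fold changes of -1.26 to -0.76 for *F13a1*, -0.48 to -0.30 for *Thbd* and -0.12 to 0.0895 for *Plaur*, which was above 0 only without mouse 1. The cause of these differences was not tested. Scaling by library size alone moved the share of higher genes among those past the threshold from 59.6% to 48.7%, and no member changed its call. The block changed no other member's call. The scarce members *F3* and *Serpinb2* had at most 50 and 25 counts in any library. The part of counting error in the members' values was not tested.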
